A study of Mus musculus with 12 samples.

Results

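The genes described here carry symbols of 4 kinds that were given to genes first noticed through their expression in the testis: Spata (spermatogenesis associated), Tex (testis expressed), Tsga (testis specific gene antigen), and the testis-specific serine kinases Tssk with their substrate Tsks. Their levels were followed in the testes of wild-type C57BL/6 mice, an inbred laboratory strain, at 3, 6, 12 and 18 months of age (3M, 6M, 12M and 18M), with 3 libraries at each age and no treatment or engineered allele named for any group. The libraries of an age are biological replicates by the study's account, each is called a mouse below, and whether the mice of an age came from the same litter is not known. A gene was taken when its symbol began with Spata or Tex and a digit, with Tssk or Tsga and a digit, or was Tsks, when it lay on an autosome, and when its transcript matched the annotation, was contained in it, shared a splice junction with it or overlapped its exons on the same strand. This rule gave 232 of 71967 transcripts and 61 of 31773 genes and loci, namely 28 Spata genes, 24 Tex genes, 6 Tssk genes, Tsks and 2 Tsga genes, on 17 chromosomes. A further 29 transcripts of 6 genes on the X or Y chromosome and 29 antisense or intronic transcripts at 11 of the genes were left out by the rule. The whole testis was sequenced after removal of ribosomal RNA, so a value of this kind cannot tell fewer cells of a type from less RNA per cell. The kit does not keep the strand, so reads of overlapping genes on opposite strands cannot be told apart.

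Spermatogenesis runs from dividing spermatogonia through meiotic spermatocytes to haploid spermatids, which condense their nucleus, build an acrosome and a tail, and wrap mitochondria around the midpiece. The shared symbols do not mark a family: the genes take part in different steps, from meiotic recombination and the bridges between germ cells to the kinases and structural proteins of late spermatids, and some serve cells throughout the body. Many of those used in spermatids are transcribed almost only in the testis.

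The libraries held between 50924104 and 71803379 estimated reads, and the 61 genes together took 1.31% to 1.35% of them in the mice of 3M, 1.33% to 1.34% in those of 6M, 1.36% to 1.48% in those of 12M and 1.41% to 1.42% in those of 18M. Every mouse of 18M was above every mouse of 3M and 6M in this share, and the highest share was that of mouse 3 of 12M. That mouse had the highest level of the 12 for 20 of the 61 genes and the lowest for 10. Markers of each germ cell and somatic cell list checked were measured in the tissue: the summed FPKM of 6 elongating spermatid markers, protamines and transition proteins among them, was 23761 to 26177 at 3M and 24280.3 to 28987 at 18M, with 32756 in mouse 3 of 12M. FPKM is the fragment count scaled to the length of the transcript and to the depth of the library, so that levels of different genes can be compared.

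The 61 genes differed widely in level. The mean FPKM of a gene, summed over its transcripts, ran from 1.07 to 607 with a median of 74.8 over the 12 mice, and 54 genes lay at 10 or more, 26 at 100 or more and 14 at 200 or more. The most abundant was Spata4, whose FPKM was 613, 586 and 551 at 3M, 583, 575 and 592 at 6M, 606, 551 and 687 at 12M and 633, 621 and 687 at 18M. It was followed by Spata20, a protein with a thioredoxin-like domain found in spermatids, at 471 (range over the mice 451 to 489), Spata21 at 393, Spata33 at 392 and Spata24 at 386. The ranges of Spata4 and Spata20 did not overlap, whereas those of Spata21 (377 to 407), Spata33 (62.0 to 639) and Spata24 (198 to 543) did. Spata20 and Spata21 varied little between mice, and Spata33 and Spata24 had the largest spread among the 14 genes above 200. Tex33 (385), Spata3 (384), Spata18 (349), Spata6 (344), Tex40 (343) and Tsks (319) were the others above 300. Below them came Spata19 (280.2), Tssk2 (263), Tssk6 (235), Tssk1 (196), Tex35 (191), Tssk3 (167), Spata7 (148), Tex37 (146) and Spata16 (141), and among these neighbours the ranges over the mice overlapped. Spata13 and Spata5l1, both with roles in cells outside the testis, were the lowest at 1.07 and 1.10.

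**Figure D1:**
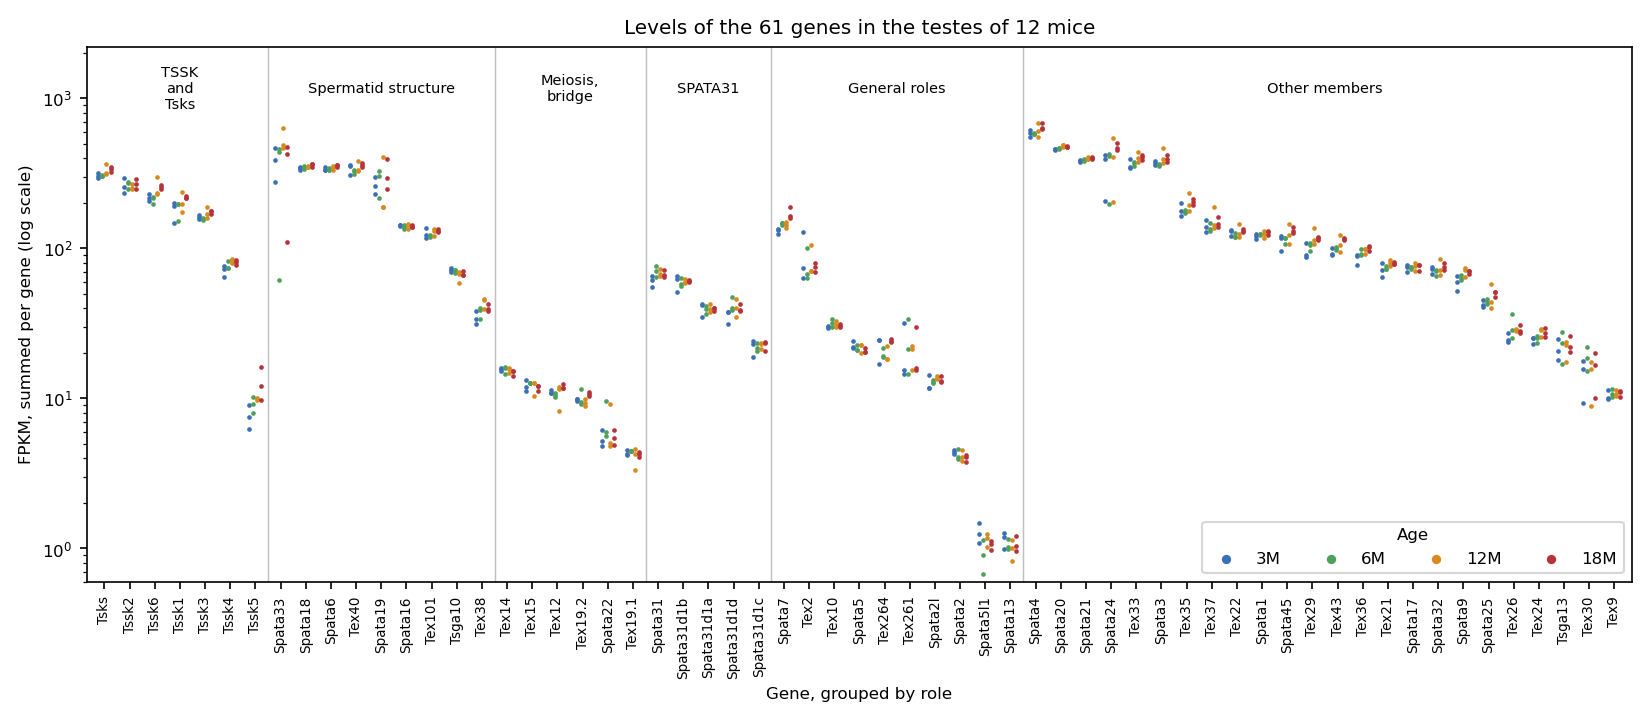
FPKM of each of the 61 genes, summed over its transcripts, in 12 mice (1 point per mouse, coloured by age; log axis), grouped by role and ordered by mean level. Genes of spermatid structure and the TSSK kinases sit mostly above 100, meiosis genes at means of 15.4 or less, and the points of the 4 ages lie close together for most genes.

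Age differences were small against these differences in level. The spread between mice of the same age, as the pooled SD of log2 CPM (reads scaled to the normalized library depth), had a median of 0.10 over the genes and ran from 0.03 to 1.01. The coefficient of variation over all 12 mice had a median of 7.45% and was under 10% in 42 genes. For each gene the slope on age was estimated from all 12 mice and is given as the log2 change of the read level over the 15 months from 3M to 18M. None of the 61 genes was called at a p-value of 0.05 or less adjusted over all 25423 genes and loci tested with edgeR, where 44 or 0.173% were called, and the smallest adjusted p among the members was 0.0990 (Tex43). At an unadjusted p of 0.05 or less, 25 of the 61 stood out, each with an estimate above 0. DESeq2 called 4 at an adjusted p of 0.05 or less (Tex36, Tex43, Tssk5 and Tssk6), where it called 1.89% of 29901 genes. These are all genes with at least 1 read, as DESeq2 was run without the filter on low counts. The later DESeq2 shares likewise include genes or transcripts of very low counts. Of all genes tested with edgeR, 15.2% reached the unadjusted level in either direction, 7.41% with an estimate above 0 and 7.82% below 0. Among the 10735 genes with a mean of 10 CPM or more, to which 57 of the 61 belong, the shares were 9.59% above 0 and 10.4% below 0.

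Estimates above 0 prevailed. The slope was above 0 in 48 of the 61 genes (78.7%) and in 51.3% of all genes tested, or 48.4% of those at 10 CPM or more, and its median was 0.11 in the 61 genes and 0.01 in all. The 25 genes at an unadjusted p of 0.05 or less had estimates from 0.07 to 0.65, which as folds over 15 months are 1.05 to 1.57 with a median of 1.14. Leaving out 1 mouse at a time gave between 17 and 27 genes at the unadjusted level. The number was lowest without mouse 3 of 18M and highest without mouse 3 of 12M. In the latter case 26 genes had an estimate above 0 and 1 below. Summing annotated transcripts alone gave 16. By level, 25 of the 26 genes at an FPKM of 100 or more had an estimate above 0 and 16 of them reached the unadjusted level, against 23 and 9 of the 35 genes below 100. The split by shared exons, drawn after the values were seen, gave 16 of 36 genes without an exon shared with another locus and 9 of 25 genes with one. Shares of all genes were taken for neither split, so whether other genes at these levels lean the same way is not shown. Marker lists were followed in the same libraries. All 5 round spermatid markers (the list without Tssk1) had slopes above 0 and 3 reached the unadjusted level, with a summed FPKM of 481 to 536 in the mice of 3M, 531 to 566 in those of 6M, 548 to 594 in those of 12M and 574 to 596 in those of 18M. All 6 elongating spermatid markers also had slopes above 0, although none reached that level. Of 7 Leydig cell markers, 6 reached the unadjusted level with slopes below 0 and 2 were called, with a sum of 978 to 1129 at 3M and 686 to 949 at 18M. The highest Leydig sum was that of mouse 3 of 6M (1667), which also had the highest Sertoli sum. Slopes below 0 at the unadjusted level were found in 1 of 6 spermatogonia, 0 of 6 spermatocyte, 1 of 8 Sertoli cell, 3 of 6 peritubular and vessel, and 1 of 5 macrophage and lymphocyte markers, none of which was called, and no marker of these lists had one above 0 at that level. No marker of any list was at 0 in all libraries, and the part of cell make-up in the values of the 61 genes was not tested.

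**Figure D2:**
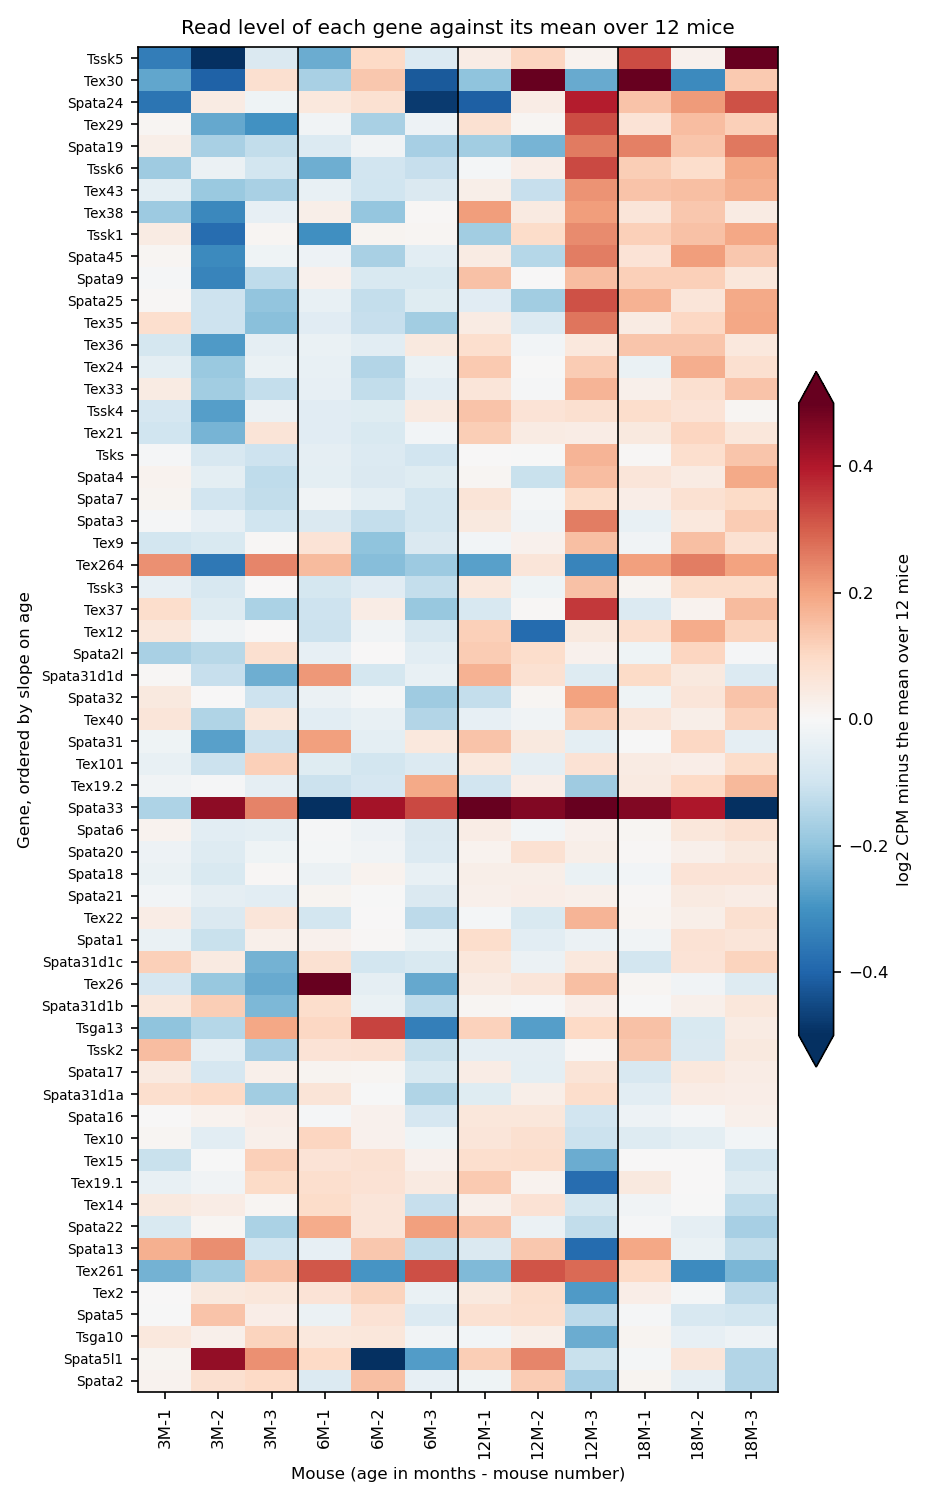
log2 CPM of each of the 61 genes in each mouse minus the gene's mean over the 12 mice (colours end at 0.5 either side of 0), with genes ordered by their slope on age and mice by age. Genes with high slopes are mostly blue at 3M and 6M and red in mouse 3 of 12M and at 18M, and dark cells in single mice stand out for Spata33 (mouse 1 of 6M and mouse 3 of 18M) and Tex30.

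**Figure D3:**
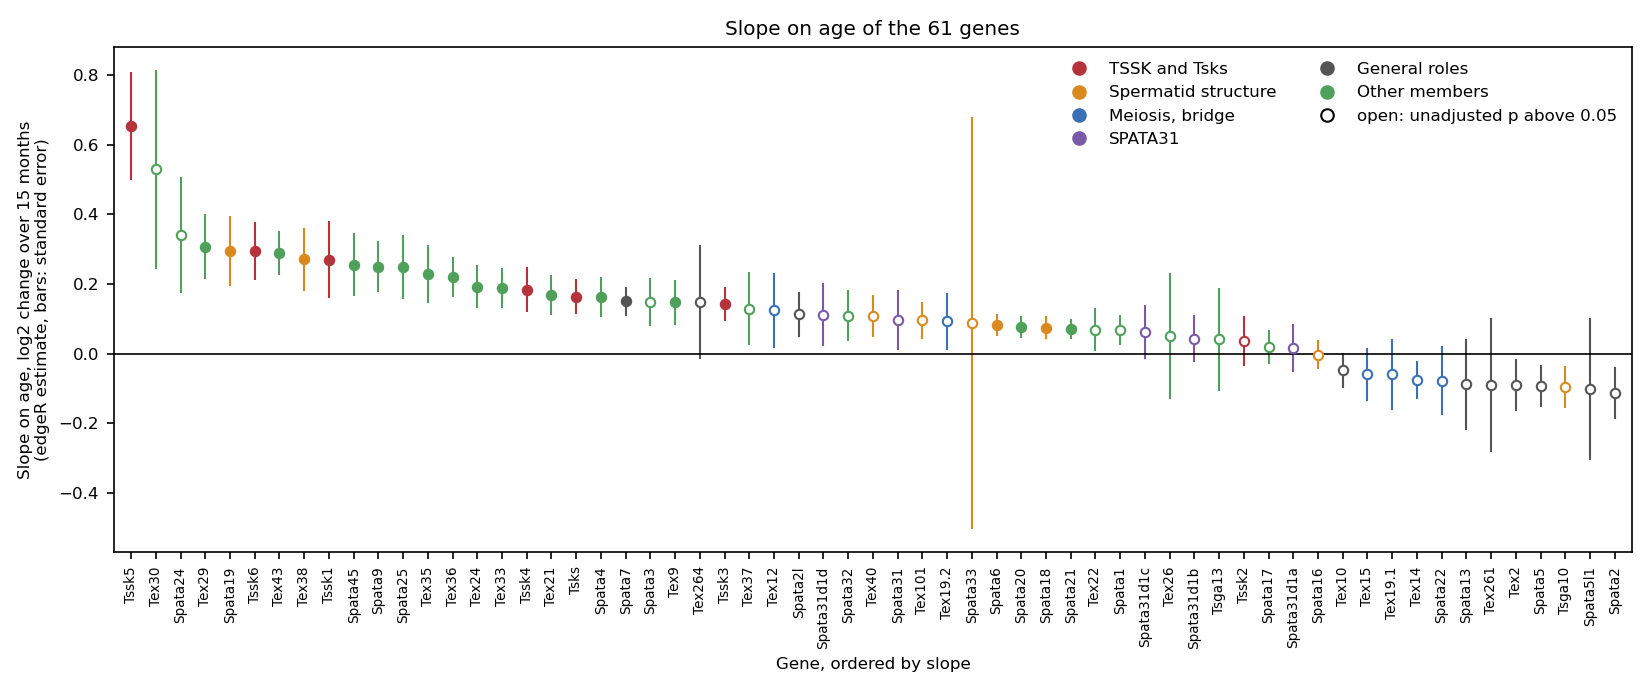
Slope on age of each of the 61 genes as the log2 change over 15 months (edgeR estimate ± standard error from 12 mice), coloured by role, with filled points for an unadjusted p of 0.05 or less. The 25 filled points all lie above 0. Below 0 lie 7 of the 10 genes with general roles and 4 of the 6 meiosis genes, while 51.3% of all genes tested lie above 0.

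The testis-specific serine kinases and their substrate had estimates of 1 direction. All 7 had a slope above 0, with a median of 0.18, and 6 of them, all but Tssk2, reached an unadjusted p of 0.05 or less, while none was called by edgeR. These kinases are made after meiosis, and loss of Tssk6, which is needed for the exchange of histones for protamines in the spermatid nucleus, makes male mice infertile. The FPKM of Tssk6 was 207, 229 and 218 at 3M, 196, 218 and 219.8 at 6M, 230.4, 235 and 299 at 12M and 255, 247 and 265 at 18M. Every mouse of 18M lay above every mouse of 3M and 6M, while mouse 3 of 12M was the highest of all. The slope of Tssk6 was 0.29 ± 0.08 (± standard error, n = 12 mice, edgeR adjusted p = 0.163). The 250 bases before its start in RefSeq (GRCm38.p6, chr8:69901934-69902183, plus strand) are shown because they hold the half-site of the cAMP response element, bound by the CREM protein of spermatids, given here in capitals:
Tssk6: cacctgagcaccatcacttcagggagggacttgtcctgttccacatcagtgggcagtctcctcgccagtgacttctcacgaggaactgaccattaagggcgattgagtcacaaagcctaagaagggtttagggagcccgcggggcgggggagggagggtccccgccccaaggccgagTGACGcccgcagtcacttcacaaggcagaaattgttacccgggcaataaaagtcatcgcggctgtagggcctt
The half-site was searched as TGACG on both strands. It was found in 11 of 64 promoter windows of 53 members, or 17.2%, and in 17.8% of all 32851 mouse windows, and the full element TGACGTCA was in none of the members' windows and in 1.55% of all.

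Tssk5 was the least abundant kinase and had the largest estimate of the 61 genes. Its FPKM was 7.57, 6.24 and 9.04 at 3M, 8.02, 10.3 and 9.19 at 6M, 9.84, 10.1 and 9.76 at 12M and 12.0, 9.71 and 16.1 at 18M. The 3 mice of 18M were above the 3 of 3M, but they were spread more widely than those of the younger ages, and mouse 2 of 18M lay within the range of 6M. The slope was 0.65 ± 0.15 (n = 12 mice, edgeR adjusted p = 0.127), and without 1 mouse it ranged from 0.47 to 0.78. Tssk5 had 8 transcripts, and its annotated transcript NM_183099 held an FPKM of 1.06 at 3M and 2.06 at 18M. DESeq2 called Tssk5 in the slope, between 3M and 18M and among the 4 ages. Tssk1, which with Tssk2 is needed for the chromatoid body and the mitochondrial sheath of spermatids, stood at 179.9 ± 29.0 FPKM at 3M and 218 ± 3.89 at 18M (SD, n = 3), with a slope of 0.27 ± 0.11. Tssk2, its neighbour on chromosome 16, stood at 260.2 ± 30.4 and 269.5 ± 19.9, with a slope of 0.03 ± 0.07, and its mice of 3M and 18M overlapped. Both share exons with the read-through transcripts MSTRG.7882.1 and MSTRG.7882.2, which were counted with Tssk1. Tssk3 (162 ± 5.09 at 3M, 176 ± 4.84 at 18M) and Tssk4 (71.3 ± 5.87, 80.8 ± 2.75), a kinase of the sperm tail protein ODF2, had slopes of 0.14 and 0.18. For Tsks, which shares exons with Ap2a1 and Cpt1c, the values were 305 ± 11.8 at 3M and 335 ± 13.7 at 18M with a slope of 0.16 ± 0.05 (edgeR adjusted p = 0.181). The mice of 3M and 18M did not overlap in read level for Tssk1, Tssk3, Tssk4, Tssk5, Tssk6 and Tsks. Higher levels at 18M without overlap were found in 23 of the 61 genes and in 9.45% of all genes. For Tssk1 summed with Tssk2 they overlapped, at 769, 631 and 676 CPM at 3M and 779, 726 and 782 at 18M.

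Genes of spermatid structure were abundant, and most of their estimates were small. Of 9 such members, 7 had a slope above 0, 4 of them at an unadjusted p of 0.05 or less (Spata19, Tex38, Spata6 and Spata18), with a median of 0.09 for the 9. Spata6, needed for the connecting piece between sperm head and tail, held 337 ± 10.3 FPKM at 3M and 354 ± 5.44 at 18M. Spata18, which acts in the quality control of mitochondria, held 341 ± 8.10 and 359 ± 9.90. The slopes of the pair were 0.08 and 0.07, and the mice of an age differed by little in both. Spata16, an acrosome protein whose loss gives round-headed sperm, was among the steadiest: its FPKM was 141, 143 and 143 at 3M, 139, 143 and 136 at 6M, 145, 144 and 134 at 12M and 139, 139.8 and 142 at 18M. All 12 values lay close together, and the slope was -0.0032 ± 0.04. Tex40, a subunit of the sperm calcium channel CatSper, had a slope of 0.11 ± 0.06, and Tex101, a surface protein that germ cells need for the maturation of the sperm protein ADAM3, had 0.10 ± 0.05. Tex38, which works with the acyltransferase ZDHHC19 in shaping the sperm head, stood at 34.6 ± 3.43 FPKM at 3M and 40.0 ± 2.19 at 18M with its highest mean at 12M (43.4 ± 3.38), and a slope of 0.27 ± 0.09. Tsga10, a protein of the sperm tail and midpiece, had an estimate below 0, as had Spata16. Its FPKM was 71.9, 69.7 and 73.7 at 3M, 71.5, 71.8 and 69.1 at 6M, 67.5, 69.8 and 58.7 at 12M and 70.5, 66.2 and 66.7 at 18M. In CPM the mice of 18M lay below those of 3M without overlap, and the lowest value was that of mouse 3 of 12M, but the slope of -0.10 ± 0.06 (edgeR adjusted p = 0.469) was not called, and with annotated transcripts alone it was 0.028.

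The meiosis and bridge genes were at low levels, with estimates on both sides of 0. Of 6, 4 had a slope below 0 and 2 above 0, the median was -0.06, and none reached an unadjusted p of 0.05 or less. Of all genes tested 51.3% had a slope above 0, and 6 genes are too few to show a direction against that share. Tex14, which keeps the bridges between dividing germ cells open, had an FPKM of 15.9, 15.7 and 15.4 at 3M, 16.3, 15.9 and 14.5 at 6M, 15.7, 15.9 and 14.8 at 12M and 15.3, 15.3 and 14.0 at 18M. The mice of 18M were the lowest group, with mouse 3 of 18M lowest of all and mouse 3 of 6M next, and in CPM they did not overlap with 3M. The slope was -0.08 ± 0.05 (edgeR adjusted p = 0.533). Its annotated transcript NM_031386 stood at 50.9, 51.3 and 50.2 at 3M, 55.3, 53.3 and 42.5 at 6M, 42.2, 57.6 and 40.9 at 12M and 46.6, 39.3 and 37.8 at 18M in CPM. For this transcript all mice of 18M were below all mice of 3M, and its slope was -0.30 ± 0.13 (edgeR adjusted p = 0.678). Its share of the reads of Tex14 was 63.5% to 64.3% at 3M and 51.3% to 61.2% at 18M. The assembled MSTRG.3391.1 differs from it only by lacking 78 bases, so the division of reads between them is uncertain. Tex15, which acts in meiotic recombination and in the silencing of transposons by piRNAs, had a slope of -0.06 ± 0.08, Spata22, which works with MEIOB in recombination, -0.08 ± 0.10, and Tex19.1, which restrains retrotransposons, -0.06 ± 0.10. Tex12, of the central element of the synaptonemal complex, and Tex19.2, the paralog of Tex19.1, had slopes of 0.12 ± 0.11 and 0.09 ± 0.08. In mouse 3 of 12M the median of the 6 genes was -0.15 in log2 CPM against their means over 12 mice, while that of the TSSK group was 0.15.

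Members with general roles in the cell also had estimates on both sides of 0. Of 10, 7 were below 0 and 3 above 0, where 51.3% of all genes were above 0. The median was -0.09, and 1, Spata7, reached an unadjusted p of 0.05 or less. Spata7, a protein of the connecting cilium of photoreceptors, had an FPKM of 125, 135 and 133 at 3M, 148, 143 and 148 at 6M, 151, 138 and 143 at 12M and 189.7, 165 and 159 at 18M. The mice of 18M were above all others. In CPM, which does not depend on transcript length, they lay closer to the other ages, at 414, 384 and 376 at 3M and 419, 432 and 438 at 18M, and the slope was 0.15 ± 0.04 (edgeR adjusted p = 0.156). With annotated transcripts alone the slope of Spata7 was 0.65. Spata2, which links the deubiquitinase CYLD to the LUBAC ubiquitin ligase, had an FPKM of 4.29, 4.42 and 4.52 at 3M, 3.96, 4.62 and 4.08 at 6M, 4.09, 4.52 and 3.85 at 12M and 4.21, 4.10 and 3.77 at 18M, all within a narrow band, with a slope of -0.11 ± 0.07 (edgeR adjusted p = 0.484). Spata5, an ATPase of ribosome maturation, had a slope of -0.09 ± 0.06, and with annotated transcripts alone 0.10. Tex2, a lipid transfer protein of the endoplasmic reticulum, had -0.09 ± 0.07 and Tex10, which takes part in ribosome formation, -0.05 ± 0.05. In Spata2, Spata5, Tex14 and Tsga10 the mice of 18M lay below those of 3M in CPM without overlap, a pattern found in 4 of the 61 genes and in 9.87% of all genes. For Tex264, a receptor for the autophagy of the endoplasmic reticulum, Tex261, which helps cargo leave it, Spata2l, Spata5l1 and Spata13, an exchange factor of small GTPases, the slopes were 0.15, -0.09, 0.11, -0.10 and -0.09, and none reached an unadjusted p of 0.05 or less.

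The 5 measured genes of the Spata31 family, a group of related genes expressed in spermatids, had slopes between 0.02 and 0.11 with a median of 0.06, none at an unadjusted p of 0.05 or less. Spata31 stood at 61.03 ± 5.26 FPKM at 3M and 67.7 ± 3.57 at 18M, and Spata31d1b, Spata31d1a, Spata31d1d and Spata31d1c at means of 60.0, 39.5, 39.4 and 22.3 over the 12 mice. All 5 lie on chromosome 13 and resemble each other in sequence, so the division of reads between them by the counting is uncertain.

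The other 24 members all had a slope above 0, with a median of 0.16, and 14 reached an unadjusted p of 0.05 or less. Tex43, a protein inside the microtubules of the sperm tail, had the smallest p of the 61 genes. Its FPKM was 101, 90.6 and 92.3 at 3M, 101, 97.0 and 102 at 6M, 105, 94.3 and 123 at 12M and 114, 115 and 117 at 18M. The 3 mice of 18M lay close together and above every mouse of 3M and 6M, and only mouse 3 of 12M was higher. The slope was 0.29 ± 0.06 (n = 12 mice, edgeR adjusted p = 0.0990), and it ranged from 0.27 to 0.31 without 1 mouse. Both transcripts of Tex43 had a mean FPKM that was higher at each age than at the one before. Tex36 had an FPKM of 88.4, 77.3 and 90.4 at 3M, 91.3, 90.2 and 99.1 at 6M, 98.9, 91.4 and 99.1 at 12M and 103, 103 and 96.7 at 18M, and the 3 mice of 18M lay above those of 3M. Its slope was 0.22 ± 0.06 (edgeR adjusted p = 0.146). Spata9 stood at 58.9 ± 6.60 FPKM in the mice of 3M, 63.7 ± 2.14 in those of 6M, 70.1 ± 5.07 in those of 12M and 69.9 ± 1.89 in those of 18M (SD, n = 3), with a slope of 0.25 ± 0.07 (edgeR adjusted p = 0.177). For Spata4 the slope was 0.16 ± 0.06, for Spata20 0.08 ± 0.03, for Spata21 0.07 ± 0.03, for Tex33 0.19 ± 0.06 and for Tex35 0.23 ± 0.08, all at an unadjusted p of 0.05 or less, while Spata24 (0.34 ± 0.17), Spata3 (0.15 ± 0.07) and Tex37 (0.13 ± 0.10) missed it. Tex30 had an estimate of 0.53 ± 0.29, the largest after Tssk5, with a wide standard error: its CPM was 71.7, 64.9 and 90.8 at 3M, 76.8, 94.2 and 64.3 at 6M, 74.7, 152 and 72.1 at 12M and 155, 68.8 and 94.1 at 18M, and the mice of 3M and 18M overlapped. Tex30 shares exons with 4 transcripts of other loci, which held 81736 reads against 61274 of its own. Of the others, Tex29 (0.31), Spata25 (0.25), Spata45 (0.26), Tex24 (0.19), Tex21 (0.17) and Tex9 (0.15) reached the unadjusted level, and Spata1, Spata17, Spata32, Tex22, Tex26 and Tsga13 had slopes between 0.02 and 0.11 and did not. Transcripts of other loci that share exons also held more reads than the gene at Tex9 (228789 against 46115), Spata25 (34147 against 25625) and Tsga13 (24076 against 13600). The division of reads at these genes is uncertain.

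A short sequence upstream of the start was shared by 7 of these 24 genes and by Spata31d1a. The X-box half-site GTTGCC, part of the motif of the RFX factors that act on cilium and sperm tail genes, was searched on both strands and was found in 10 of the members' 64 windows, those of 8 genes (15.6%), and in 10.4% of all mouse windows. The windows of Tex35 overlap and hold the same site, which is thus counted more than once in the 15.6%. The windows of Spata4 (chr8:54600531-54600780, plus strand), Tex33 (chr15:78395913-78396162, minus strand), Tex35 (chr1:157108651-157108900, minus strand) and Tex36 (chr7:133602116-133602365, minus strand) are shown because these members reached an unadjusted p of 0.05 or less and begin at the 5′ end of their leading transcript. They are from RefSeq on GRCm38.p6, 250 bases each, with the half-site in capitals (GGCAAC where it lies on the other strand):
Spata4: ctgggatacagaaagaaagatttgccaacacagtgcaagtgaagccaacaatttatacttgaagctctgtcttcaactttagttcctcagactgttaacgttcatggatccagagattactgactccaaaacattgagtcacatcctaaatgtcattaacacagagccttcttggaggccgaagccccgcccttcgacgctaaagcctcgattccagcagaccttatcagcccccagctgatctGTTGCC
Tex33: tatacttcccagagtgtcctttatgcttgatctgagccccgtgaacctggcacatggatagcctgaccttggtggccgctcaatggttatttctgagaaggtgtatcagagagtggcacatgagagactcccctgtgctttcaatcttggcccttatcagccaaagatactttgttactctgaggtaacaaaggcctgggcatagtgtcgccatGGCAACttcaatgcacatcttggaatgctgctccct
Tex35: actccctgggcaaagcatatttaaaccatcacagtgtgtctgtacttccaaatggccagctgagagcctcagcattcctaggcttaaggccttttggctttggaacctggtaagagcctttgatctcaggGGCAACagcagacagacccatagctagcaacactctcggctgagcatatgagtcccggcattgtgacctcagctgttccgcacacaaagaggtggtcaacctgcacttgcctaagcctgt
Tex36: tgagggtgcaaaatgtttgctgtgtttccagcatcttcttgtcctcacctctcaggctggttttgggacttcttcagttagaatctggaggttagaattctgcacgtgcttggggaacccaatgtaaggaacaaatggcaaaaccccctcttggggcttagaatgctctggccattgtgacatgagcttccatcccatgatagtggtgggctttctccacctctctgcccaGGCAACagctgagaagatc
A match is a description of the sequence and not a binding site. The CCAAT box (CCAAT) was in 26.6% of the members' windows and 33.8% of all, and the TATA box (TATAAA) in 4.69% and 12.4%, both searched on either strand.

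**Figure D4:**
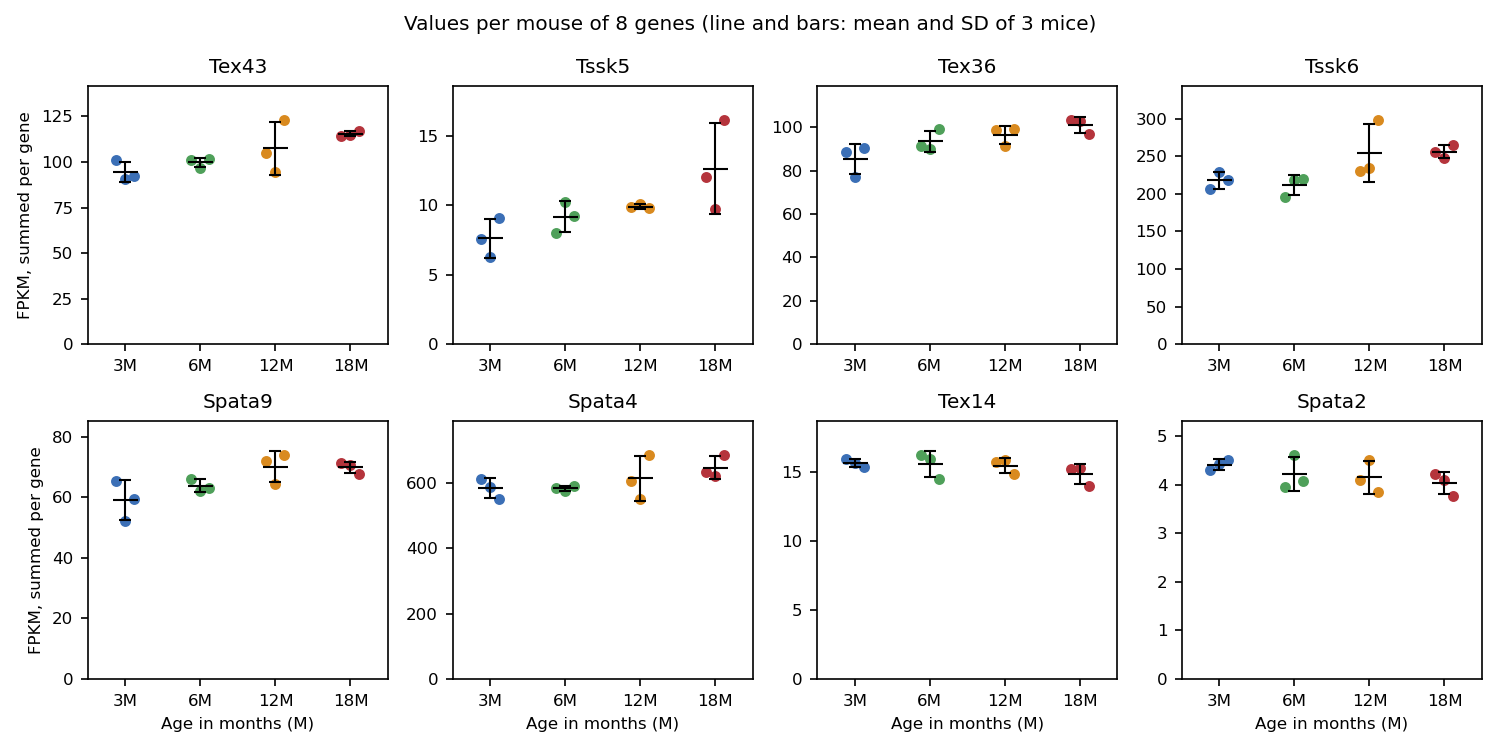
FPKM per mouse, summed per gene, of 8 genes at 4 ages (points: 3 mice per age; line and bars: mean and SD; each axis starts at 0). In Tex43, Tssk5, Tex36, Tssk6, Spata9 and Spata4 the mice of 18M lie above those of 3M, and in Tex14 and Spata2 they lie below.

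Between 3M and 18M the median of the members' estimates, 18M minus 3M, was 0.10 on the log2 scale. Between the 3 youngest and the 3 oldest mice, edgeR called none of the 61 genes, against 17 or 0.0685% of 24811 tested, and DESeq2 called 4 (Spata19, Tex43, Tssk5 and Tssk6), against 1.02%. At an unadjusted p of 0.05 or less there were 18, all higher at 18M (12.0% of all genes in either direction), where 5.63% of all genes were higher and 6.4% lower, and 16 of the 18 were among the 25 of the slope, which uses the same mice. The number fell to 11, 10 and 9 without mouse 2 of 3M, mouse 2 of 18M and mouse 3 of 18M, and to 7 with annotated transcripts alone. In CPM, all 3 mice of 18M were above all 3 of 3M in 23 genes (37.7%) and below in 4 (6.56%), where all genes gave 9.45% and 9.87%. The test of any difference among the 4 ages called none by edgeR (0.0787% of all genes) and 1, Tssk5, by DESeq2 (1.24%), and 13 genes reached an unadjusted p of 0.05 or less, as did 8.98% of all genes. That number was 8, 7 and 8 without mouse 2 of 3M, mouse 2 of 18M and mouse 3 of 18M, and 6 with annotated transcripts alone. The highest mean FPKM was at 18M in 30 genes, at 12M in 14, at 6M in 9 and at 3M in 8.

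Of the genes whose products work with the members, 27 of 29 were tested. They include Meiob for Spata22, Cep55 for Tex14, Cyld for Spata2, Odf2 for Tssk4, Adam3 for Tex101 and Zdhhc19 for Tex38. Their slope was above 0 in 12 and their median was -0.01. An unadjusted p of 0.05 or less was reached by 4 with an estimate above 0 and 2 below 0, and none was called, with a smallest adjusted p of 0.192 (edgeR).

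The 232 transcripts varied also between mice of the same age. The 61 genes had from 1 to 16 transcripts: 16 had 1, and 45 had several. Of all 232, 95 matched the annotation, 135 were assembled with a shared splice junction and 2 overlapped the exons. In the 45 genes the leading transcript took a median of 60.8% of the reads, was annotated in 30 genes and assembled in 15, and reached 50% or more in 29 and 90% or more in 8. In 27 of them the same transcript led in all 12 mice, and in 18 the lead passed between transcripts. In 8 (Spata5, Spata7, Spata19, Spata24, Tex2, Tex9, Tex264 and Tex30) the share of the overall lead ran from under 5% in one mouse to over 50% in another.

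In Spata5 the lead passed between a pair of transcripts. Its transcripts MSTRG.12766.4 and MSTRG.12766.5, of 2934 and 2916 nucleotides, differ by an exon of 37 bases present in the first (chr3:37529983-37530019, mm10), one of 39 bases present in the second (chr3:37560499-37560537) and 20 bases at the start. The first stood at 51.2, 64.5 and 49.7 at 3M, 50.5, 62.1 and 0.0529 at 6M, 60.5, 62.3 and 0.191 at 12M and 0.0354, 49.2 and 0.0565 at 18M in CPM, and the second at 0.0191, 0.0709 and 0.123 at 3M, 0, 0.277 and 48.6 at 6M, 0.204, 0.113 and 39.4 at 12M and 49.9, 0.0568 and 50.2 at 18M. Each mouse had the one or the other: the first led in 8 mice and the second in 4, namely mouse 3 of 6M, mouse 3 of 12M and mice 1 and 3 of 18M. The sum for Spata5 ranged from 19.97 to 24.0 FPKM over the mice. Between 3M and 18M, edgeR did not call MSTRG.12766.4 with all mice and called it without mouse 2 of 18M, the mouse of that age that had it (log2 difference -10.15, adjusted p = 0.0367), while DESeq2 called MSTRG.12766.5.

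Tex2 passed between MSTRG.3760.2, leading in 8 mice, the annotated NM_198292, leading in mouse 3 of 3M, 12M and 18M, and MSTRG.3760.3, leading in mouse 2 of 6M. Its FPKM sum was 63.5, 73.9 and 128 at 3M, 63.4, 101 and 67.1 at 6M, 71.1, 70.2 and 105 at 12M and 69.8, 74.8 and 79.7 at 18M, and the high values of mouse 3 of 3M, mouse 2 of 6M and mouse 3 of 12M were those of mice led by the shorter transcripts of 4942 and 7991 nucleotides in place of 14610. In Spata24 the lead also passed between transcripts, but these are of like length, NM_027733 of 710 nucleotides and NM_029485 of 702. NM_027733 took 75.3% to 78.1% of the reads in 9 mice. It took 2.01% to 2.51% in mouse 1 of 3M, mouse 3 of 6M and mouse 1 of 12M, where NM_029485 led. These were also the 3 mice with the lowest FPKM of Spata24, at 208, 198 and 203 against 397 to 543 in the others, and none was of 18M. Their CPM of Spata24 was lower as well, at 246, 229 and 238 against 313 to 419. In Spata19, a protein of sperm mitochondria, NM_029299 took 85.5% to 88.4% of the reads in 5 mice and 0.250% to 6.62% in the other 7, with both kinds of mouse at every age. The slope of Spata19 was 0.30 ± 0.10, and the assembled transcript MSTRG.20644.1 was at 49.3, 25.9 and 0.0565 CPM at 18M and at no more than 1.16 in any younger mouse.

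Spata33, which ties the phosphatase calcineurin to sperm mitochondria, had the highest coefficient of variation of the 61 genes, 40.4%. Its FPKM was 277, 470.3 and 391 at 3M, 62.0, 459 and 442 at 6M, 486, 466 and 639 at 12M and 477, 427 and 111 at 18M. Mouse 1 of 6M and mouse 3 of 18M stood far below the rest. In these 2 mice the assembled transcript MSTRG.20408.4, which carries the symbol of the neighbouring gene Cdk10 and shares exons with Spata33, was at 225 and 240.3 CPM, and in the other 10 at no more than 2.71. Spata33 itself was at 35.8 and 64.8 CPM in these mice. Summed with the Cdk10 transcripts that share its exons on the same strand, the values ran from 253 to 365 CPM over the 12 mice, with a coefficient of variation of 10.6%. In mice 1 and 3 of 3M another Cdk10 transcript, MSTRG.20408.3, was at 98.6 and 58.7 CPM, and Spata33 at 172 and 228. The low values of Spata33 stood in the mice where a transcript of the other name was high.

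**Figure D5:**
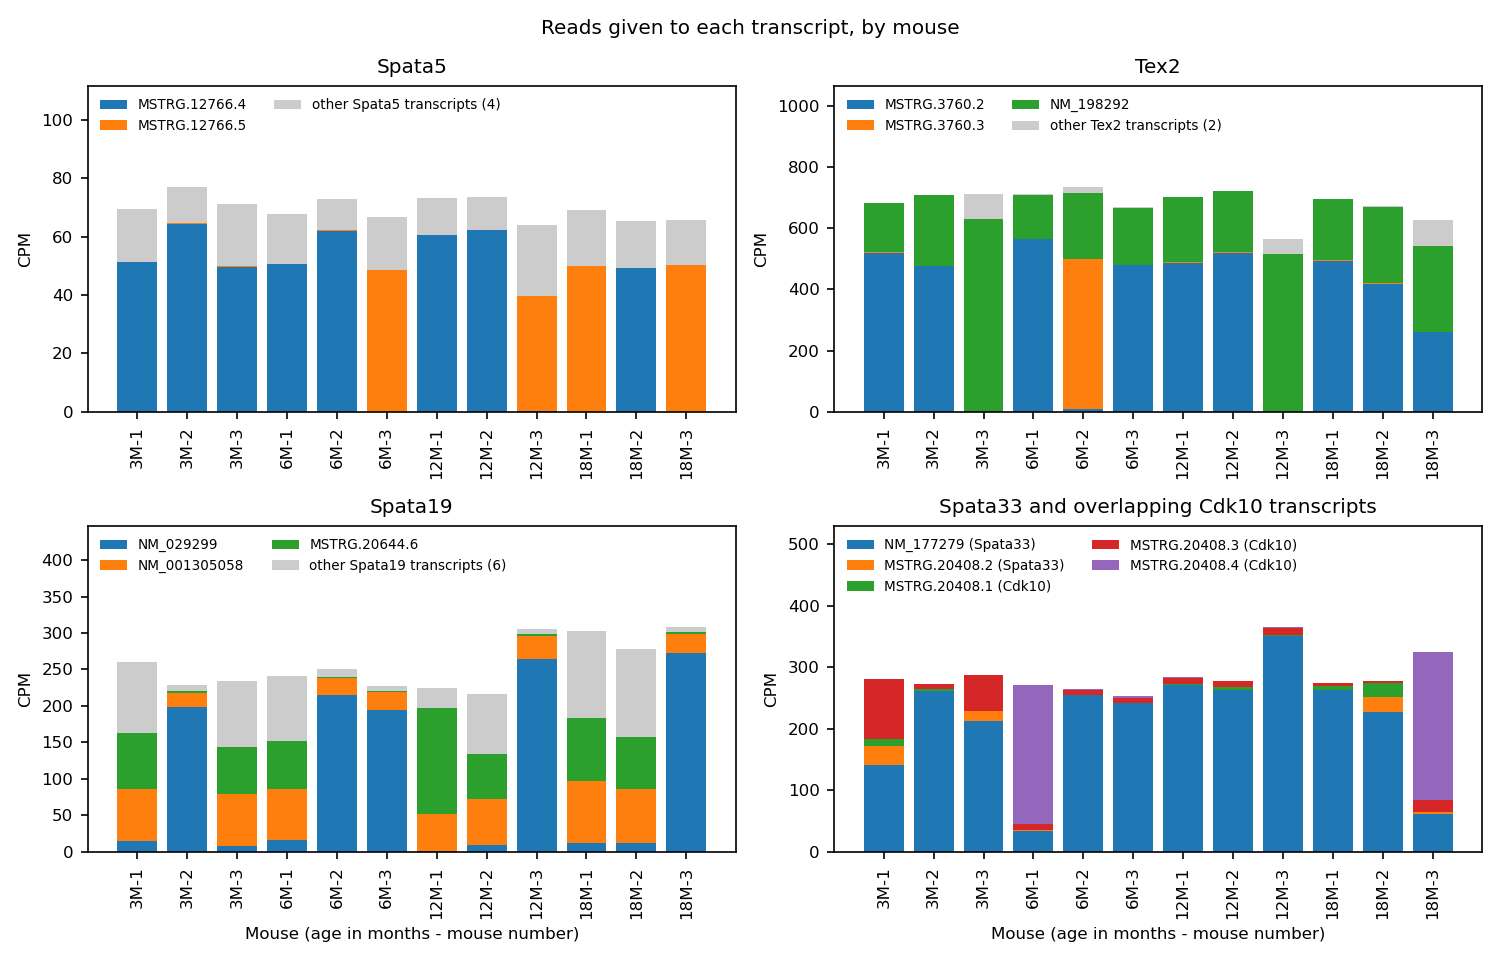
Reads in CPM given to the transcripts of Spata5, Tex2 and Spata19, and to Spata33 with the Cdk10 transcripts that share its exons, in each of the 12 mice (stacked bars from 0). The colours change from mouse to mouse within an age, as in mice 1 and 3 of 18M against mouse 2 for Spata5, whose bars differ little in height.

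Tested one by one, 222 transcripts passed the filter on low counts and edgeR called none by the slope, against 6 or 0.0103% of 58289. In simulated counts this test recovered 0% of 2-fold and 1% of 4-fold changes at the adjusted p. The absence of calls therefore cannot show that changes of these sizes are absent. DESeq2 called 5, against 1.58%: NM_026099 of Tex43, NM_028654 of Tex36, NM_001163612 of Tex33, MSTRG.20644.1 of Spata19 and MSTRG.16523.4 of Tex26. At an unadjusted p of 0.05 or less there were 25 with an estimate above 0 (11.3%) and 5 below 0 (2.25%), where all transcripts gave 3.5% and 3.65% (7.15% in either direction), and the 30 belonged to 26 genes. NM_026099 had a CPM of 36.1, 35.4 and 34.4 at 3M, 37.0, 35.1 and 35.3 at 6M, 39.5, 35.6 and 45.5 at 12M and 43.1, 42.1 and 44.0 at 18M, with every mouse of 18M above every mouse of 3M, and a slope of 0.31 ± 0.08 (edgeR adjusted p = 0.458). NM_028654 of Tex36, its only transcript, had a slope of 0.22 ± 0.06 and NM_001163612 of Tex33 0.20 ± 0.06. For MSTRG.242.9 of Tex30 the estimate was 6.95 ± 1.74 (edgeR adjusted p = 0.458), which rested on 1 mouse. It was at 64.3 CPM in mouse 3 of 18M and between 0.0353 and 0.748 in the other 11, and without that mouse the slope was 0.29. Among those below 0, MSTRG.16523.4 of Tex26 was at 2.96, 1.74 and 0.718 CPM at 3M and 0, 0.0189 and 0.0283 at 18M. MSTRG.17059.3 of Tex261 was at 27.9, 30.5 and 5.32 at 3M and 5.67, 5.04 and 5.91 at 18M, where mouse 3 of 3M overlapped with 18M, and MSTRG.4645.7 of Spata7 was at 49.8, 6.38 and 9.77 and 1.24, 6.82 and 1.91, led by mouse 1 of 3M.

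Between 3M and 18M, 214 transcripts were tested and edgeR called none, against 0.108% of all, with 12 at an unadjusted p of 0.05 or less above 0 and 5 below 0, where all gave 2.56% and 2.84% (5.4% in either direction). Without mouse 3 of 18M the number at the unadjusted p was 10 in place of 17. Of simulated 4-fold changes between 3M and 18M, edgeR recovered 0% at the adjusted p. DESeq2 called 9, against 3.16%, 6 of them in Tex43, Tssk4, Tssk6, Tex35, Tex38 and Tsga13 with a higher level at 18M. The others were MSTRG.12766.5 of Spata5, higher at 18M, and MSTRG.16523.4 of Tex26 and MSTRG.4645.3 of Spata7, both lower. The study selected transcripts by DESeq2 between 3M and 18M and, apart from that, by continuous change. The latter is a mean FPKM that goes the same way at each step from 3M to 18M. The study counted it in transcripts classed as mRNA or lncRNA, whereas annotated and assembled transcripts of any class were used here. It was met by 23 of the 197 member transcripts whose mean FPKM reached 1 at some age. A rise at each step was found in 21 (10.7%), of 18 genes, against 5.63% of all such transcripts, and a fall in 2 (1.02%) against 4.61%. The 21 included NM_009435 of Tssk1 (163, 165, 186 and 202 FPKM), NM_029336 of Spata45 (112, 114, 125 and 132 FPKM) and both transcripts of Tex43. Those with a continuous fall were NM_031386 of Tex14 and MSTRG.5373.1 of Spata31d1a. The measure has no error of its own: it gave 14 transcripts without mouse 2 of 12M, 33 without mouse 1 of 3M and 12 genes when FPKM was summed per gene.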

How the data were processed

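Testes of wild-type C57BL/6 mice, in 12 libraries, 3 at each of 3M, 6M, 12M and 18M, were sequenced as paired-end total RNA after depletion of ribosomal RNA with a kit that does not keep the strand. Per the labels and the methods of the study, the authors aligned the reads with HISAT2 and assembled and quantified transcripts of all libraries with StringTie 1.3.3b on mm10. The table deposited by the authors holds, for each transcript and library, an estimated count, which StringTie derives from coverage, length and a read length of 101 bases, and an FPKM value. The counts matched that formula in every library, with 0 differing.

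Counts were summed per gene over the transcripts of the rule, and FPKM likewise. The values were already whole and entered edgeR 4.0.16 (R 4.3.3) on the whole table: TMM normalization, the filter on low counts by its default rule, and the quasi-likelihood test, with age as a number (the slope), as 3M against 18M on 6 libraries, and as any difference among 4 ages. P-values were adjusted by Benjamini and Hochberg over all genes or transcripts tested, and 0.05 or less was called. A continuous change is a mean FPKM that goes the same way at each step and reaches 1 at some age. Columns of per-sample values left unmapped numbered 0. Python 3.11.15 with pandas 2.3.3, numpy 2.4.6, scipy 1.17.1 and matplotlib 3.10.9 did the rest, and the tests were tested on simulated data.

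Named with values are the 20 members of highest FPKM, members called in any test, the 6 rising and 6 falling genes and the 4 rising and 4 falling transcripts with the smallest p of the slope at 1 CPM or more, and the members of the role lists. The other members, the exon overlaps, the mouse-to-mouse lead of transcripts and the promoter windows were described after their values were seen. The members, role lists, partner list and marker lists were chosen with earlier results of these data known. The alternatives were library size only, DESeq2 size factors, no filter beyond 1 read, DESeq2 1.42.0, an unadjusted p, a log2 size of 1, the mouse number as a block, each mouse left out in turn, other transcript sums, all 12 libraries in the pair, and for the continuous change an FPKM minimum of 0.5 or 2, medians, TMM-normalized CPM and gene sums. Promoter windows came from RefSeq on GRCm38.p6, of which mm10 is the UCSC name, and were read for 53 of the 61 genes, with 8 named only.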

Additional observations from a re-analysis of the deposited data

Results flagged for a closer look

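Signal was also measured in transcripts of these loci that the rule leaves out, although those at Spata20 and Tex2 had a lowest CPM of 0 over the libraries. Mean CPM over the 12 libraries of antisense and intronic transcripts was 10.9 at Spata6, 9.85 at Tex26, 9.64 at Tssk1, 8.81 at Tex14, 6.27 at Spata16, 5.67 at Spata1, 3.29 at Tex261, 1.85 at Tsga13, 0.330 at Spata45, 0.314 at Tex2 and 0.0840 at Spata20. Since the libraries keep no strand, reads of such a transcript cannot be told apart from reads of the gene where their exons overlap. At Spata6 and Tex14 none of the left-out transcripts shared an exon with the gene. Among X-linked genes with these symbols, Tsga8 was the most abundant at a mean CPM of 174, and Tex13a stood at 45.0, Tex11, a meiotic gene, at 10.2, Tex13 at 8.58, Tex16 at 6.14 and Tex28 at 2.41. No test was run on them here.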

How the results depend on the processing

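In place of 0 genes called by edgeR at the adjusted p, the unadjusted p gave 25 in the slope, 18 between 3M and 18M and 13 among the 4 ages, and DESeq2 gave 4, 4 and 1 at the adjusted p. For transcripts these numbers were 30 and 17 (unadjusted) and 5 and 9 (DESeq2). At the unadjusted p DESeq2 gave 32 of 231 members between 3M and 18M, against 7397 of all 66290 transcripts. Summing annotated transcripts alone left 16, 7 and 6 genes at the unadjusted p, and turned the slope of Spata5 to 0.10 and that of Tsga10 to 0.028. Without 1 mouse the genes at the unadjusted p were 17 to 27, 9 to 20 and 7 to 17, the transcripts 21 to 34 and 10 to 18, with 0 to 1 transcript called between 3M and 18M, and the continuous changes 14 to 33, with 12 when summed per gene. The cause was not tested. Of 364 values of 20 named results under the alternatives, 362 kept their sign. These 20 were picked for the smallest p of the slope in the same mice that the alternatives reuse. The kept signs are therefore no separate support for them. Same-numbered mice did not deviate together over all genes taken at once (correlations between -0.074 and 0.083). Such a check cannot show an effect shared by same-numbered mice in a small part of the genes. The mouse number as a replicate block gave 0 calls and 24, 13 and 12 genes and 24 and 12 transcripts at the unadjusted p. With 3 mice an age, changes of the size of the estimates here (median 1.14-fold at the unadjusted p) passed no adjusted p by edgeR, and counts per transcript carry the added uncertainty of dividing reads between transcripts.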
